A study of Danio rerio with 6 samples.

Results

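The comparison sets zebrafish embryos that received an Spt5 morpholino against embryos that received a control morpholino, both at 21 hours post-fertilization (hpf). It uses 4 of the 6 samples of the study, selected by their titles: 2 Spt5 knockdown arrays and 2 control morpholino arrays. All 4 are whole Danio rerio embryos of the TL strain, and about 2.5 pmol of a carboxyfluorescein-tagged morpholino, a synthetic antisense oligonucleotide, had been injected at the start of cleavage. The other 2 samples, untreated embryos at 21 hpf and at 5 hpf with 1 array each, are used only to describe how a gene changes with age. The comparison was designed to find targets of Spt5, and the untreated ages to show how strongly those genes are switched on between them. Embryos of the first group are called Spt5 morphants and those of the second controls. The knockdown rests on 1 morpholino sequence at 1 dose, and how many embryos made up a sample is not stated in the labels.

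Spt5 is the large subunit of DSIF, a factor that travels with RNA polymerase II. Together with NELF, DSIF holds the polymerase in a paused state shortly after initiation, and once the kinase P-TEFb has phosphorylated it, the same factor aids elongation. Zebrafish spt5 mutants are known for defects of dopaminergic neurons and of pigmentation.

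The oligonucleotide itself defines the treated group, and its sequence, written 5′ to 3′ in lower case as the labels give it, is gtttctctacagtctgtcgctcctg. It is 25 bases long with 52% G and C, and its complement holds no ATG triplet. Where it pairs with the supt5h transcript was not analysed here. The supt5h probe set read 211 and 171 in Spt5 morphants, against 196 and 172 in controls. The groups overlapped. The log2 difference of 0.05 ± 0.14 (limma's moderated SE, n = 2 arrays per group) was not past the threshold by limma's moderated test (adjusted p = 0.8). A morpholino acts on translation or splicing of its target, so this level does not check the knockdown.

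Levels are normalised intensities of Affymetrix probe sets, and each is comparable between arrays for 1 gene but not between genes. A difference is the mean log2 intensity of Spt5 morphants minus that of controls, over 2 arrays each. The value after ± is limma's moderated standard error. It draws on the spread of all tested probe sets as well as that of the gene's own arrays. A gene is said to have risen or fallen where limma's adjusted p was under 0.05. A gene is called dim in a group where both of its arrays lay below an intensity of 32, the limit of measurement used here, and its fold is then a lower limit, the mean of the brighter group over that limit. Deposited median intensities were 26.9 and 36.2 in Spt5 morphants and 32.6 and 44.0 in controls, which quantile normalisation over the 4 arrays made equal. Of 15502 probe sets, 8457 reached an intensity of 32 on at least 2 of the 4 arrays and were tested. The correlation of log2 intensities was 0.951 within Spt5 morphants, 0.953 within controls and 0.916 to 0.919 between them. The ratio of 3′ to 5′ signal of the actin control was 6.94 and 6.99 in Spt5 morphants and 9.91 and 9.61 in controls, and its part in the results was not tested. The labels do not say whether replicates are separate clutches or injections, so p-values reflect the spread among 4 arrays, and that spread may be technical. The markers bore out the labelled age and tissue in part. Genes of muscle, blood, epidermis, heart and neural tube were present in controls. The blood factor gata1a read 27.5 and 31.5 there, under the limit, and 10.2 and 15.5 in Spt5 morphants. The heart genes myl7 and cmlc1 were under an intensity of 32 in Spt5 morphants. Nanog, a blastula gene that read 2226 in untreated embryos at 5 hpf, stood at 12.1 and 11.8 in Spt5 morphants and 11.8 and 14.5 in controls. Another early gene, pou5f3, read 1179 in untreated embryos at 5 hpf and 37.5 and 35.0 in controls. Mixl1 read 9.95 and 10.4 in controls. Vox and ved, taken as early genes too, were above the limit in controls, at 160.5 and 157 and at 63.0 and 46.7. In untreated embryos at 5 hpf they read 206.8 and 22.1.

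Of the tested probe sets, 47.3% passed the test, 2059 higher and 1942 lower in Spt5 morphants. With 1 probe set per gene, 5691 of the 8793 named genes on the array were tested and 47.1% were called: 1282 rose, which is 22.5% of them, and 1399 fell, which is 24.6%. Those 2 shares are the background against which each gene family is read. Called genes at least 2-fold higher made up 4.31% and called genes at least 2-fold lower 7.13%. In whole embryos, fewer cells of a type and less RNA per cell cannot be told apart, here or in any family below. The counts depended on single arrays. Leaving out Spt5 array 1, Spt5 array 2, control array 1 and control array 2 in turn left 709, 642, 969 and 1039 higher genes and 1054, 970, 875 and 919 lower genes. The same order of left-out arrays is used below wherever 4 counts stand in parentheses. Below, every fit means the fit to all 4 arrays and these 4 fits, not other scalings or filters. Genes that are dim in 1 group can drop out of such a fit because too few bright arrays remain. Such genes enter the test only through the other group, so their direction is fixed by the filter: 190 were tested through Spt5 morphants alone and 256 through controls alone. The counts and medians of families include them. Their number is given with each family that holds any and whose risen and fallen genes are counted in the text. Families without such counts may hold some too.

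The tested genes were sorted by symbol into 106 families, some of which share members. The families held 2052 tested genes, of which 405 rose and 607 fell, and the 3639 genes outside them gave 877 and 792. Among the 88 families with at least 10 tested genes, over 50% of genes fell in 14 and over 50% rose in 9. The median difference lay beyond 0.5 on the log2 scale in 19 of the 88, and its sign relative to the median of all genes was the same for those 19 under every setting tried. The median of all tested genes was 0.00. It moved to -0.23 on the values as deposited and to -0.30 after centring on spiked-in controls, so family medians under other scalings are read relative to it.

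**Figure D1:**
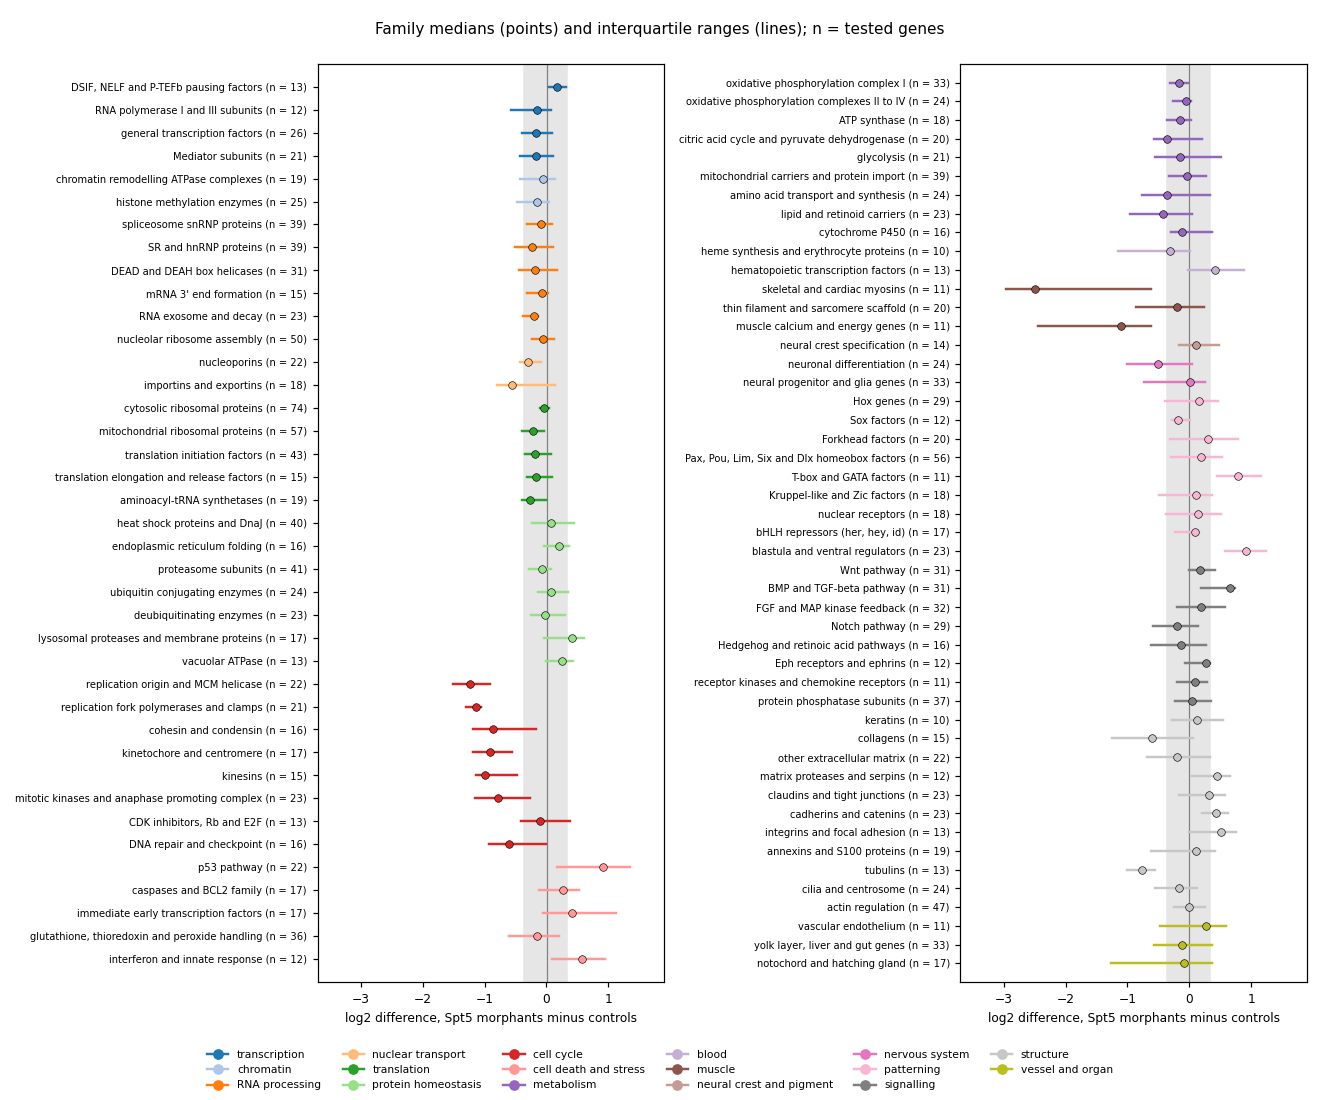
Median log2 difference (Spt5 morphants minus controls, horizontal axis) of the families with at least 10 tested genes, all but 1 of the 88, grouped by function from top to bottom; each line spans the interquartile range of the family's genes and the grey band that of all tested genes. Myosins, replication families and muscle calcium and energy genes lie farthest left, and the p53 pathway, blastula and ventral regulators and T-box and GATA factors farthest right.

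Few genes of pausing and release factors changed. Of 13 tested genes for pausing and release factors (of 14 on the array), 2 rose and 1 fell, and the median was 0.17 (0.07 to 0.19 relative to all genes with an array left out). Both risen genes, ell2 and ell, encode elongation factors that suppress pausing by the polymerase. The ell2 probe set read 521 and 544 in Spt5 morphants, against 206 and 200.3 in controls. All 3 of its tested probe sets rose, and the difference was 1.39 ± 0.09 (adjusted p = 0.0011). For ell the difference was 0.88 ± 0.11. The member that fell, nelfe, encodes a subunit of NELF and read 60.8 and 54.8 in Spt5 morphants, against 92.0 and 89.1 in controls, a difference of -0.65 ± 0.10. The kinase gene of P-TEFb, cdk9, stood at 269 and 269 in Spt5 morphants, against 248 and 259 in controls, and was not called (adjusted p = 0.47).

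Of 8 subunits of RNA polymerase II 1 fell and none rose. That gene was polr2f, whose product is shared by RNA polymerases I, II and III. It read 69.7 and 72.1 in Spt5 morphants, against 213 and 219.6 in controls, so that all Spt5 morphant values lay below all control values, and fell by 1.61 with an SE of 0.09. The largest subunit, polr2a, was at 161 and 162 in Spt5 morphants, against 191 and 181 in controls, and was not called (adjusted p = 0.13). Of 12 subunits of polymerases I and III, 5 fell (4, 4, 3 and 5), and 2 rose, 1 tested through Spt5 morphants alone. Among those that fell are polr3k (-1.09 ± 0.10), polr1b (-0.98 ± 0.12) and polr3b (-0.56 ± 0.09).

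Initiation factors moved in both directions. Among 26 general transcription factors, 3 rose and 7 fell (4, 4, 2 and 2 lower), with 1 tested through Spt5 morphants alone and 3 through controls alone. The gene for TFIIB, gtf2b, which links the promoter complex to the polymerase, rose by 0.91 ± 0.11, and taf1c, a subunit of the polymerase I factor SL1, rose by 1.19 ± 0.13. The large subunit of TFIIF, gtf2f1, was dim in Spt5 morphants at 16.1 and 20.9 and read 80.5 and 93.3 in controls. It was tested through controls alone and was at least 2.71-fold lower in Spt5 morphants. The TATA-binding protein gene tbp was at 123 and 124 in Spt5 morphants, against 131 and 123 in controls. Those values overlap, and the gene was not called. Of 21 Mediator subunits, 2 rose (2, 2, 1 and 2) and 7 fell (3, 4, 3 and 3 lower). Med7 rose by 0.88 ± 0.10, and med24 (-0.80 ± 0.14) and med13b (-0.60 ± 0.10) fell.

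Elongation chaperones that accompany the polymerase were split. In the Paf1 complex and FACT group 3 of 8 genes rose (0, 0, 1 and 0) and 2 fell in every fit. The 2 that fell were leo1, a Paf1 complex subunit, and ssrp1a, a subunit of the histone chaperone FACT. Leo1 read 57.5 and 87.3 in Spt5 morphants, against 230.4 and 292 in controls, and its difference was -1.87 ± 0.23. Ssrp1a read 150.3 and 138 in Spt5 morphants, against 367 and 342 in controls, and its difference was -1.30 ± 0.10. In each of them both tested probe sets fell.

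Chromatin genes fell more often than they rose, 24 against 7 of 63 tested. Over the 19 tested members of remodelling complexes, 2 rose (0, 0, 1 and 0) and 7 fell (4, 4, 4 and 5), and 1 was tested through Spt5 morphants alone. Smarca4a, the Brg1 ATPase of the SWI/SNF complex, read 238 and 249 in Spt5 morphants, against 577 and 599.7 in controls, and fell by 1.27 with an SE of 0.09. Baz1b (-1.31 ± 0.11), smarcad1a (-0.72 ± 0.10) and smarca5, the ISWI ATPase (-0.56 ± 0.10), fell too. Of 25 histone methylation enzymes, 3 rose and 8 fell (3, 5, 5 and 5 lower), and 1 was tested through controls alone. Those that fell include suz12b, a Polycomb repressive complex subunit (-0.80 ± 0.12), and the demethylase kdm1a (-0.76 ± 0.10). Setd7 (0.72 ± 0.12) and kdm5ba (0.63 ± 0.09) rose, and ezh2, the Polycomb methyltransferase, missed the threshold at -0.55 ± 0.18 (adjusted p = 0.056).

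DNA methylation was one of the smaller families with a clear shift. Of 7 tested genes 4 fell in every fit, and the median was -0.65. Dnmt1, the maintenance methyltransferase, read 88.3 and 82.8 in Spt5 morphants, against 272 and 291 in controls. Uhrf1, which brings Dnmt1 to hemimethylated DNA, read 228 and 233 in Spt5 morphants, against 665 and 655 in controls. In both genes the arrays of the groups did not overlap, and the differences were -1.72 ± 0.10 (adjusted p = 0.00091) and -1.52 ± 0.09 (adjusted p = 0.00095). The de novo enzyme genes dnmt3ba (-0.65 ± 0.10) and dnmt3bb.2 (-0.70 ± 0.11) fell less. Among the few histone genes tested, macroh2a2, a variant of H2A, fell by 0.64 with an SE of 0.09.

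RNA processing families had medians slightly below that of all genes. Regulators of splice site choice, the SR and hnRNP proteins, held the most calls: 5 of 39 rose in every fit and 16 fell (9, 12, 11 and 13), with a median of -0.24. Hnrnpabb, an mRNA-binding protein, read 307 and 333 in Spt5 morphants, against 1446 and 1470.0 in controls, a difference of -2.19 ± 0.10 (adjusted p = 0.00059). The related hnrnpdl went the other way, with 1145 and 1192 in Spt5 morphants, against 589.8 and 614 in controls, a difference of 0.96 ± 0.09. The splicing activators tra2b (-1.08 ± 0.10), tra2a (-0.96 ± 0.09), srsf3b (-1.05 ± 0.10) and srsf1a (-0.55 ± 0.09) fell, whereas srsf6b (0.67 ± 0.09), ptbp3 (0.81 ± 0.15) and hnrnpua (0.97 ± 0.13) rose. In the core spliceosome 1 of 39 genes rose and 10 fell (4, 6, 6 and 6 lower), 1 of the tested genes through controls alone. Sart3, a recycling factor of U4/U6, rose by 0.59 ± 0.09, and lsm7 (-0.81 ± 0.10) and snrpa, a protein of the U1 particle (-0.73 ± 0.10), fell. The U2 component sf3b1 stood at 807 and 923 in Spt5 morphants, against 760.2 and 843 in controls, and was not called (adjusted p = 0.48).

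Among 31 DEAD and DEAH box helicases, 3 rose and 9 fell (8, 6, 4 and 4 lower), with 1 tested through Spt5 morphants alone and 1 through controls alone. Ddx42, tested through controls alone, read 13.3 and 12.7 in Spt5 morphants and 118 and 132 in controls, which is at least 3.91-fold lower. Ddx39b, part of the export machinery that follows splicing, rose by 0.76 ± 0.13, and ddx3xb, a helicase of translation initiation, fell by 1.14 with an SE of 0.09. For 3′ end formation, 1 of 15 genes rose and 4 fell: cpsf4 rose by 0.77 ± 0.10, while cpsf1 (-0.90 ± 0.12), nudt21 (-0.67 ± 0.11) and the cytoplasmic poly(A)-binding protein gene pabpc4 (-1.36 ± 0.10) fell. RNA exosome and decay genes gave 1 risen and 7 fallen of 23 (4, 1, 1 and 4 lower), exosc4 (-0.75 ± 0.10) among them.

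Nuclear transport carriers fell more often than the background. Of 18 tested importins and exportins 10 fell (9, 8, 10 and 10) and 3 rose (2, 1, 1 and 2), with a median of -0.56. Kpna2, an importin alpha that carries proteins with a nuclear localisation signal, read 267 and 231 in Spt5 morphants, against 909.5 and 884 in controls, with no overlap. It fell by 1.85 with an SE of 0.11 (adjusted p = 0.00097). Ipo7 (-1.22 ± 0.09), ipo9 (-1.09 ± 0.11) and the importin beta gene kpnb1 (-0.99 ± 0.12) fell as well. No nucleoporin of 22 rose, and 9 fell (6, 5, 5 and 7). Nup43, nup37 and nup107 belong to the Y complex of the pore scaffold and nup93 to its inner ring. Their differences were -1.32 ± 0.11, -1.21 ± 0.12, -0.77 ± 0.10 and -1.22 ± 0.10.

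Cytosolic ribosomal proteins had the smallest share of called genes among the 88 families in this fit. Of 74 genes, all those on the array, 1 rose and 3 fell (1 in each direction with any array left out), and the median was -0.03 (-0.06 to -0.02 relative to all genes with an array left out). Rps27l, a ribosomal protein paralog known in human cells as a p53 target, read 1819 and 1808 in Spt5 morphants, against 913 and 912 in controls, a difference of 0.99 ± 0.09. Rpl22l1, a paralog of rpl22, read 514 and 523 in Spt5 morphants, against 1206 and 1250.4 in controls, a difference of -1.24 ± 0.09. Both of the genes that changed in every fit are thus paralogs of a standard subunit. Mitochondrial ribosomal proteins fell more often: 17 of 57 (6, 5, 8 and 11) against 3 that rose (0, 2, 3 and 1), with a median of -0.22. The 29.8% of them that fell lay above the share of cytosolic ribosomal proteins but near the 24.6% of all tested genes. Among the mitochondrial ones called in every fit were mrpl17 (-0.70 ± 0.09), mrpl38 (-0.65 ± 0.10) and mrpl9 (-0.63 ± 0.09). Assembly factors of the nucleolus gave 4 risen (0, 0, 2 and 3) and 10 fallen (2, 2, 4 and 3) of 50. Utp25 (-0.99 ± 0.15) and wdr18 (-0.60 ± 0.10) fell, and fbl and npm1a, the most familiar nucleolar proteins, differed by 0.20 ± 0.09 and 0.21 ± 0.11 and were not called.

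A larger share of translation factors than of ribosomal proteins was called. Of 43 initiation factors 4 rose (2, 2, 4 and 3) and 11 fell (7, 6, 7 and 6). Eif3c, a core subunit of the eIF3 complex, read 256 and 218 in Spt5 morphants, against 792 and 809 in controls. Eif3ja, its loosely bound partner, read 161 and 141 in Spt5 morphants, against 509 and 502 in controls. Both stood at less than their control level on each array, with differences of -1.76 ± 0.12 and -1.74 ± 0.11. Eif5b, which joins the ribosomal subunits, read 229.9 and 219.7 in Spt5 morphants, against 94.1 and 93.6 in controls, a difference of 1.26 ± 0.09 in the other direction. The helicase paralogs eif4a1b and eif4a1a differed by -1.05 ± 0.11, which was called, and 0.01 ± 0.11, which was not (adjusted p = 0.96). Of 15 elongation and release factors 1 was tested through Spt5 morphants alone. The release factor etf1b rose to 722 and 693 in Spt5 morphants, against 207 and 184 in controls, a difference of 1.86 ± 0.11. Eef1b2 (-1.30 ± 0.09) and eef1g (-0.81 ± 0.09), exchange factor subunits of eEF1, fell. Of 19 aminoacyl-tRNA synthetases 5 fell (3, 1, 1 and 4), of which qars1 was called in every fit (-0.65 ± 0.10).

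Of 180 genes for protein folding and turnover 41 rose, near the background share, and 28 fell. Heat shock proteins and DnaJ co-chaperones gave 11 risen (6, 8, 8 and 10) and 6 fallen of 40, 1 tested through controls alone. Hspb1, a small heat shock protein, read 2052 and 2109 in Spt5 morphants, against 797 and 826 in controls. Its difference was 1.36 ± 0.09, and the heat shock factors hsf1 (0.75 ± 0.10) and hsf2 (1.04 ± 0.10) rose beside it. Dnajc9 (-1.26 ± 0.24), hspb8 (-1.22 ± 0.09) and bag4 (-0.77 ± 0.11) fell. In the endoplasmic reticulum set 4 of 16 rose (1, 3, 3 and 2), canx, the calnexin chaperone, by 0.76 ± 0.10, and atf4a, a factor induced by amino acid stress, fell by 0.77 with an SE of 0.15. In the cytosolic chaperonin CCT 1 of 8 subunits fell, cct6a (-0.57 ± 0.10), and tcp1 was not called at -0.15 ± 0.10.

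Proteasome subunits fell in 7 (4, 5, 3 and 6) and rose in 1 (0, 0, 1 and 1) of 41 genes, 1 of them tested through controls alone. Psmd9, an assembly chaperone of the regulatory particle, read 27.9 and 38.0 in Spt5 morphants, against 140.1 and 126 in controls. Psmb5, a catalytic subunit, read 159 and 123 in Spt5 morphants, against 301 and 302 in controls. They differed by -2.03 ± 0.17 and -1.11 ± 0.14. Ubiquitin conjugating enzymes rose in 7 (3, 4, 2 and 3) and fell in 3 of 24 genes. Ube2h (1.05 ± 0.10) and ube2d2 (0.90 ± 0.09) rose. Ube2t, of the Fanconi pathway of DNA repair (-1.01 ± 0.12), and ube2s, which works with the anaphase promoting complex (-0.88 ± 0.11), fell. Among deubiquitinating enzymes 6 of 23 rose (5, 4, 4 and 4) and 4 fell (3, 2, 3 and 2), 1 tested through controls alone, with usp25 (0.78 ± 0.12), usp36 (0.72 ± 0.11), usp12a (0.52 ± 0.09) and otulinb (0.89 ± 0.13) up and usp1 (-0.85 ± 0.09) down. The median of this set relative to all genes changed sign with the scaling.

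Lysosomal genes rose more often than the background. Of 17 tested, 9 rose (9, 5, 6 and 8) and 3 fell (1, 0, 3 and 1), with a median of 0.42. Ctsba, the protease cathepsin B, read 634 and 608 in Spt5 morphants, against 101 and 93.4 in controls, far apart. Sqstm1, the autophagy receptor p62, read 197 and 205 in Spt5 morphants, against 54.6 and 59.8 in controls. Npc1, the cholesterol exporter of the lysosome, read 354 and 408 in Spt5 morphants, against 119 and 140.1 in controls. Both Spt5 morphant values of each gene lay above both control values. Differences were 2.68 ± 0.10 for ctsba (adjusted p = 0.00045), 1.81 ± 0.10 for sqstm1, 1.55 ± 0.13 for npc1 and 0.68 ± 0.09 for the carboxypeptidase ctsa. The proton pump of the same organelle gave 4 risen (3, 0, 1 and 3) and 2 fallen (1, 1, 1 and 1) of 13 subunits, and atp6v1ba fell by 0.60 with an SE of 0.09.

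Of 159 cell cycle genes tested 116 fell and 9 rose, with a median of -0.91. Every one of the 21 tested genes for fork polymerases, clamps and topoisomerases fell (21, 20, 20 and 21), with a median of -1.14. Of 22 tested genes of the origin complex and MCM helicase 20 fell (20, 18, 14 and 15) and none rose, with a median of -1.23. In the second set 5 genes were dim in both Spt5 morphant arrays and passed the filter through controls alone.

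Mcm2, a subunit of the replicative helicase, read 327 and 271 in Spt5 morphants, against 1019.6 and 923 in controls. Mcm5, its neighbour in the ring, read 234 and 263 in Spt5 morphants, against 592 and 601 in controls. Orc4, part of the origin recognition complex, read 40.7 and 34.9 in Spt5 morphants, against 146 and 126 in controls. In each the groups were well apart, with differences of -1.70 ± 0.13 (adjusted p = 0.0013), -1.27 ± 0.10 (adjusted p = 0.0014) and -1.85 ± 0.13 (adjusted p = 0.0012). The GINS subunits gins4 and gins1 were dim in Spt5 morphants and at least 2.38-fold and 1.8-fold lower there. At the fork, the polymerase delta subunit pold2 read 43.4 and 42.1 in Spt5 morphants, against 181 and 142 in controls. The topoisomerase gene top1a read 188 and 188 in Spt5 morphants, against 649 and 653 in controls. The single-strand binding protein gene rpa2 read 107 and 119.5 in Spt5 morphants, against 313 and 303 in controls. All 4 probe sets of top1a fell, and the differences were -1.91 ± 0.14, -1.79 ± 0.09 and -1.45 ± 0.10. Rfc5, a clamp loader subunit, fell by 1.47 with an SE of 0.20, and the clamp itself, pcna, read 1439.9 and 1430.1 in Spt5 morphants, against 2636 and 2757 in controls, a difference of -0.91 ± 0.09. Supply of deoxynucleotides was mixed: 5 of 9 fell (4, 4, 4 and 5) and 2 rose (2, 1, 1 and 3). Rrm1, the large subunit of ribonucleotide reductase, read 130.4 and 115 in Spt5 morphants, against 729 and 754 in controls, a difference of -2.60 ± 0.11 (adjusted p = 0.00048). Dut (-1.40 ± 0.09), tyms, the thymidylate synthase (-1.16 ± 0.16), and rrm2l (-0.83 ± 0.10) fell, whereas the folate enzyme gene mthfd1b rose by 0.56 ± 0.09.

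**Figure D2:**
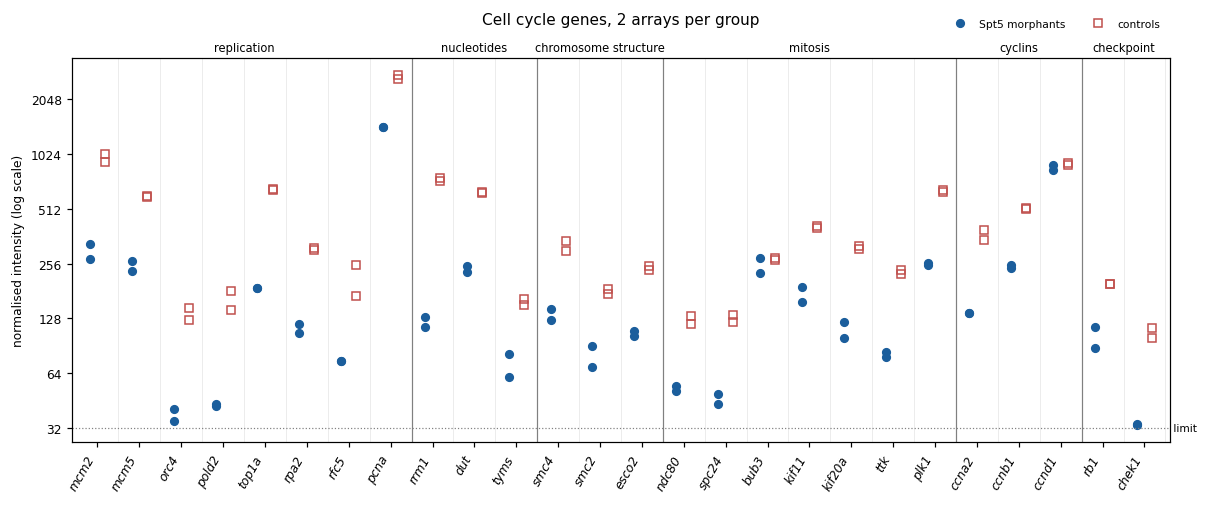
Normalised intensity (vertical axis, log scale) on each array for genes of replication, nucleotide supply, chromosome structure and mitosis; filled circles are the 2 Spt5 morphant arrays and open squares, to their right, the 2 control arrays. In every gene shown except bub3 both circles lie below both squares.

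Mitotic genes fell with those of replication. For cohesin and condensin 11 of 16 fell (10, 11, 10 and 10), for the kinetochore 13 of 17 (11, 12, 9 and 9), for kinesins 12 of 15 (9, 11, 7 and 9), and for mitotic kinases and the anaphase promoting complex 16 of 23 (13, 13, 11 and 13). In that order, 1, 3, 2 and 2 genes were tested through controls alone. No gene of these sets rose except among kinesins. The condensin subunits smc4 (-1.24 ± 0.12), smc2 (-1.19 ± 0.15) and ncapd3 (-1.21 ± 0.10) and the cohesin acetyltransferase esco2 (-1.19 ± 0.10) fell by similar amounts. Ndc80, which binds microtubules at the kinetochore, read 54.6 and 51.4 in Spt5 morphants, against 132 and 119.9 in controls. Its partner spc24 read 49.3 and 43.6 in Spt5 morphants, against 133 and 122 in controls. Their differences were -1.25 ± 0.10 and -1.46 ± 0.11. The checkpoint gene bub3 stood at 273 and 227 in Spt5 morphants, against 276 and 268 in controls, and was not called (adjusted p = 0.43).

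Spindle kinesins were among those that fell. Kif11, which pushes the poles apart, read 157 and 191 in Spt5 morphants, against 401 and 414 in controls. Kif20a, of the central spindle, read 99.4 and 122 in Spt5 morphants, against 308 and 318 in controls. Their differences were -1.24 ± 0.13 and -1.51 ± 0.13, and kif2c, which depolymerises microtubules at centromeres, fell by 1.18 with an SE of 0.11. Kif3a, a motor of cilia, rose to 49.9 and 48.1, against 32.3 and 34.4 in controls, a difference of 0.56 ± 0.09. Of the kinases, ttk (-1.51 ± 0.10) and plk1 (-1.34 ± 0.09) fell, as did incenp, which holds Aurora B at centromeres (-1.44 ± 0.10). Of 7 tested cyclins 5 fell, among them ccna2 (-1.42 ± 0.11), ccnb3 (-1.12 ± 0.16), ccnf (-1.09 ± 0.09) and ccnb1 (-1.06 ± 0.09). Ccnd1, the G1 cyclin that couples growth signals to division, read 884 and 835 in Spt5 morphants, against 893 and 909.5 in controls, was not called and differed by -0.07 ± 0.09 (adjusted p = 0.57).

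Regulators above these genes did not move as a block. Of 13 CDK inhibitors, Rb and E2F genes 3 rose (1, 2, 2 and 2) and 4 fell (3, 3, 3 and 3), with rb1 (-0.99 ± 0.15), e2f8 (-0.81 ± 0.10) and tfdp2 (-0.55 ± 0.10) lower. Foxm1, a forkhead factor that drives mitotic genes in mammals, was dim in Spt5 morphants at 25.9 and 26.6, against 78.1 and 78.3 in controls, at least 2.44-fold lower. In DNA repair and checkpoint genes 2 of 16 rose (1, 0, 1 and 2) and 9 fell (9, 7, 5 and 4). Chek1, the kinase that answers stalled forks, read 33.4 and 33.9 in Spt5 morphants, against 113 and 100.3 in controls, a difference of -1.66 ± 0.10, and unga, the uracil glycosylase, fell by 1.39 with an SE of 0.10. Only 16 of the 33 repair genes on the array passed the filter, 1 of these through Spt5 morphants alone and 4 through controls alone.

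Stress and death genes rose in several branches. The p53 pathway gave 14 risen (10, 10, 13 and 14) and 2 fallen of 22, with a median of 0.91. Of these genes 3 were tested through Spt5 morphants alone. The list was chosen with its rise in these data known, so the count is no independent evidence of its direction. Mdm2, the ubiquitin ligase that p53 induces and that degrades it, read 934 and 863 in Spt5 morphants, against 425 and 369.6 in controls, a difference of 1.18 ± 0.11, and its relative mdm4 fell by 0.65 with an SE of 0.10. Baxa, which permeabilises mitochondria, rose by 1.64 ± 0.09, and gtse1, a p53 inhibitor of G2, fell by 0.70 with an SE of 0.10. In the caspase and BCL2 set 8 of 17 rose (6, 6, 7 and 8) and 3 fell (3, 1, 2 and 1), 1 tested through controls alone. Both inducers and a brake of apoptosis were among those that rose: diabloa, which frees caspases from their inhibitors, read 130.4 and 122 in Spt5 morphants, against 43.3 and 42.6 in controls. Casp8, an initiator caspase, read 144 and 125 in Spt5 morphants, against 78.6 and 66.5 in controls. The caspase inhibitor gene xiap read 70.8 and 82.1 in Spt5 morphants, against 35.1 and 45.3 in controls. Their differences were 1.56 ± 0.09, 0.89 ± 0.13 and 0.93 ± 0.16, and aifm1, a mitochondrial flavoprotein, fell by 1.37 with an SE of 0.15.

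Immediate early factors rose in 9 (3, 3, 7 and 7) and fell in 2 (1, 1, 1 and 1) of 17 tested genes, 4 of which were tested through Spt5 morphants alone. Fosab read 272 and 239 in Spt5 morphants, against 38.1 and 35.0 in controls. All 4 of its probe sets rose, with a difference of 2.80 ± 0.11. Ier2a rose by 1.52 ± 0.13, and atf3, dim in controls, was at least 2.01-fold higher. Myca, a Myc gene, went the other way by -0.87 ± 0.11. Redox genes moved both ways: 7 of 36 rose (3, 2, 7 and 5) and 13 fell (11, 9, 11 and 10), 1 tested through Spt5 morphants alone. Nqo1, a quinone reductase under Nrf2 control, read 279.8 and 276 in Spt5 morphants, against 135 and 137 in controls, a difference of 1.03 ± 0.09. Nfe2l2a, an Nrf2 gene, was dim in controls and at least 1.45-fold higher. Among the genes that fell were those of some peroxidases that use thioredoxin or glutathione: prdx2 (-1.11 ± 0.10), prdx1 (-1.04 ± 0.12), gpx4a (-0.90 ± 0.13) and gpx1a (-0.76 ± 0.11). Of 52 innate response genes on the array 12 were tested, and 6 of these rose (3, 4, 7 and 6), 2 tested through Spt5 morphants alone. Isg15, a ubiquitin-like protein induced by interferon, read 167 and 187 in Spt5 morphants, against 65.4 and 66.2 in controls, a difference of 1.42 ± 0.10, and stat3 rose by 0.84 ± 0.14.

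Genes of oxidative phosphorylation that changed were lower, apart from 2 of ATP synthase. Complex I had 10 of 33 subunits lower (6, 6, 5 and 6) and none higher, complexes II to IV 5 of 24 lower (4, 2, 3 and 4) and none higher, and ATP synthase 5 of 18 lower (4, 3, 3 and 3) and 2 higher (0, 1, 1 and 1). The medians were -0.17 (-0.23 to -0.16 relative to all genes with an array left out), -0.06 (-0.12 to -0.05 relative to all genes with an array left out) and -0.16 (-0.18 to -0.08 relative to all genes with an array left out). In complex I 1 subunit was tested through controls alone. Ndufs1 (-0.83 ± 0.09), ndufb2 (-0.79 ± 0.11), ndufa10 (-0.71 ± 0.09), sdhdb (-0.55 ± 0.09), atp5mea (-1.20 ± 0.14), atp5f1d (-0.80 ± 0.10) and the ATP synthase inhibitor atp5if1a (-0.78 ± 0.10) fell. Cox6b1, of complex IV, read 89.5 and 81.7 in Spt5 morphants, against 216 and 219.8 in controls, a larger difference of -1.35 ± 0.10.

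In the citric acid cycle and pyruvate dehydrogenase set 10 of 20 genes fell (8, 5, 7 and 8) and 2 rose (1, 1, 2 and 4). The median was -0.35, and 1 gene was tested through Spt5 morphants alone. Idh2, a mitochondrial isocitrate dehydrogenase, read 646 and 595 in Spt5 morphants, against 1363 and 1241 in controls, with no overlap, a difference of -1.07 ± 0.11. Suclg2 (-0.94 ± 0.09) fell too, and idh3b, of the NAD-dependent enzyme, rose by 0.65 ± 0.09. The set also counts genes of cytosolic malate dehydrogenase, which is not the mitochondrial enzyme of the cycle: mdh1aa (-1.24 ± 0.11) and mdh1ab (-0.89 ± 0.11) fell. Glycolysis was evenly split, 6 up (3, 3, 6 and 6) and 6 down of 21, with 1 tested through Spt5 morphants alone and 1 through controls alone. Ldha, lactate dehydrogenase, read 132 and 139.7 in Spt5 morphants, against 70.1 and 78.3 in controls. Eno1a, an enolase, read 564 and 546 in Spt5 morphants, against 313 and 323 in controls. Both rose, by 0.88 ± 0.10 and 0.80 ± 0.09. The paralogs aldoab and eno3, whose mammalian counterparts serve muscle, fell (-1.04 ± 0.10 and -0.80 ± 0.10), and so did pgk1 (-0.83 ± 0.12).

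Amino acid genes moved both ways. Of 24 genes 7 rose (3, 3, 4 and 6) and 12 fell (10, 8, 9 and 7), with 1 tested through Spt5 morphants alone and 3 through controls alone. The transporter chain slc3a2b read 538 and 465 in Spt5 morphants, against 95.4 and 95.4 in controls, a difference of 2.39 ± 0.11 (adjusted p = 0.00063), and slc38a7 (0.85 ± 0.11) and slc7a3a (0.85 ± 0.10) rose with it. Phgdh, the entry enzyme of serine synthesis, read 141 and 156 in Spt5 morphants, against 393 and 374 in controls, a difference of -1.37 ± 0.10. Asparagine synthetase, asns, was at 48.3 and 57.4 in Spt5 morphants, against 45.9 and 60.4 in controls, and was not called (adjusted p = 1).

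Lipid carriers fell in 12 of 23 tested genes (9, 10, 10 and 10) and rose in 4 (1, 1, 1 and 1), 1 tested through controls alone. The apolipoprotein gene apoea read 31.7 and 42.9 in Spt5 morphants, against 185 and 199.6 in controls. A second one, apoa4a, read 124 and 87.5 in Spt5 morphants, against 269 and 256 in controls. Rbp4, the plasma carrier of retinol, read 72.1 and 74.7 in Spt5 morphants, against 319.7 and 263 in controls. All 3 fell in every fit with an array left out, and the differences were -2.38 ± 0.17, -1.33 ± 0.18 and -1.98 ± 0.13. Of the 6 cholesterol genes tested 3 rose (2, 2, 2 and 3): insig1, which restrains sterol synthesis, and cyp51, a sterol demethylase, rose by 1.34 ± 0.09 and 1.11 ± 0.15 with all 3 probe sets of each higher, while hmgcs1 was at 27.9 and 40.9 in Spt5 morphants, against 46.3 and 37.3 in controls, and was not called (adjusted p = 0.3). Genes for retinoid handling split by paralog. Cyp26a1, which degrades retinoic acid, read 329 and 380.2 in Spt5 morphants, against 128 and 133 in controls, a difference of 1.44 ± 0.11, and its paralog cyp26b1 was dim in Spt5 morphants and at least 1.96-fold lower. The binding proteins crabp2b and crabp2a differed by 1.54 ± 0.11 and -1.04 ± 0.20. Cyp1a, a monooxygenase induced through the aryl hydrocarbon receptor, rose to 298 and 243 in Spt5 morphants, against 91.6 and 75.6 in controls.

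Factors that specify a tissue and the proteins it makes were counted apart for muscle, blood and neural crest with pigment. They were not counted apart in the gut, liver and yolk, pronephros, or notochord and hatching gland sets, where only single genes are named. In muscle 7 of 9 myogenic regulators rose (6, 3, 6 and 7) and 1 fell (0, 1, 0 and 0), 1 tested through Spt5 morphants alone. On the values as deposited 0 of 8 were called higher and 1 lower, beside 197 of 5719 named genes higher. Their median there was 0.649 relative to all genes. Without a filter 0 of 13 were called higher. In the fit to all 4 arrays six4a rose by 0.84 ± 0.09. Myog, which acts at the onset of differentiation, stood at 309 and 328 in Spt5 morphants, against 291 and 339 in controls. It was not called in that fit (adjusted p = 0.9). Of 11 myosin genes tested in the same fit 11 fell (10, 9, 7 and 7), 3 of them tested through controls alone. Thin filament and sarcomere scaffold genes moved both ways, with 4 higher (1, 0, 2 and 2) and 9 lower (9, 9, 4 and 4) of 20, with 1 tested through Spt5 morphants alone and 5 through controls alone, and a median of -0.20 (-0.58 to 0.05 relative to all genes with an array left out). Muscle calcium and energy genes fell in 9 of 11 (9, 9, 7 and 7), 2 tested through controls alone, with atp2a1, the calcium pump of the sarcoplasmic reticulum, at 158 and 163 in Spt5 morphants, against 475 and 460.0 in controls. In blood 7 of 13 factors rose (5, 6, 7 and 6) and 2 fell (1, 2, 1 and 2). Gata2a, an early blood and endothelial factor, read 167 and 189 in Spt5 morphants, against 61.5 and 76.1 in controls. Lmo2, a partner of GATA factors, read 147 and 153 in Spt5 morphants, against 78.5 and 84.4 in controls. Cebpb, a myeloid factor, read 276 and 254 in Spt5 morphants, against 108 and 111 in controls. None of these groups overlapped, and the differences were 1.37 ± 0.14, 0.88 ± 0.10 and 1.27 ± 0.10. The lowest difference among the 13 factors was -0.88. Gata1a, lower in Spt5 morphants but under the limit on all 4 arrays, was not tested and is not among the 13. The 3 globin genes tested and 5 of 10 heme and erythrocyte genes (4, 4, 2 and 3), 2 tested through controls alone, fell. The difference of urod, an enzyme of heme synthesis, was -1.85 ± 0.09.

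Of 14 factors that specify the neural crest 5 rose (4, 3, 4 and 4) and 2 fell (1, 2, 0 and 0), 2 tested through controls alone. With dim values left as measured, the differences in this set ran from -4.07 to 1.08, with a median of 0.11. The lower end of that range is the larger in size. The genes that fell are not among those named next. Tfap2c, an early crest and epidermal factor, read 260.5 and 303 in Spt5 morphants, against 127 and 139.7 in controls. Snai1a, a repressor of E-cadherin, read 431 and 428 in Spt5 morphants, against 225 and 231 in controls. Its relative snai2 read 198 and 189 in Spt5 morphants, against 109 and 122 in controls. They rose by 1.08 ± 0.12, 0.92 ± 0.09 and 0.74 ± 0.10. Foxd3 (0.22 ± 0.10) and sox10 (-0.08 ± 0.11) were not called. The pigment enzymes dct and gch2 were dim in Spt5 morphants and at least 1.38-fold and 3.08-fold lower, and of the 8 pigment genes tested 2 rose (0, 0, 2 and 0) and 2 fell (2, 2, 0 and 0), with 2 tested through controls alone and a median of 0.02.

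In the gut, liver and yolk set 10 of 33 rose (4, 3, 6 and 7) and 14 fell (10, 10, 8 and 9), with 2 tested through Spt5 morphants alone and 3 through controls alone. Endoderm factors were among the first: foxa3 read 92.3 and 86.2 in Spt5 morphants, against 48.0 and 50.3 in controls. Gata5 read 244 and 225 in Spt5 morphants, against 149 and 129 in controls. Gata6 read 86.1 and 94.6 in Spt5 morphants, against 51.3 and 55.0 in controls. Hnf4a, dim in controls, was at least 2.02-fold higher. The 3 measured differences were 0.86 ± 0.10, 0.76 ± 0.12 and 0.76 ± 0.10. Secreted plasma proteins were among the second: the fibrinogen chain fgg read 44.2 and 46.4 in Spt5 morphants, against 143 and 135 in controls, a difference of -1.62 ± 0.09, and fga and itih2 were at least 2.01-fold and 6.35-fold lower. In the pronephros 4 of 9 rose (1, 1, 3 and 2) and 4 fell (4, 3, 2 and 2), with 1 tested through Spt5 morphants alone and 2 through controls alone. The factor gata3 read 152 and 145 in Spt5 morphants, against 65.3 and 65.9 in controls, a difference of 1.18 ± 0.09, and hnf1bb was at least 1.33-fold higher. The transporters atp1a1a.4 (-2.07 ± 0.10) and slc12a3 (at least 1.11-fold lower) and the adhesion protein cdh17 (at least 3.96-fold lower) fell. For the notochord and hatching gland, noto, a notochord factor, rose by 0.94 ± 0.12, and col9a1b (-2.11 ± 0.16), col2a1a (-1.24 ± 0.11) and agr2 (-1.34 ± 0.09) fell.

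**Figure D3:**
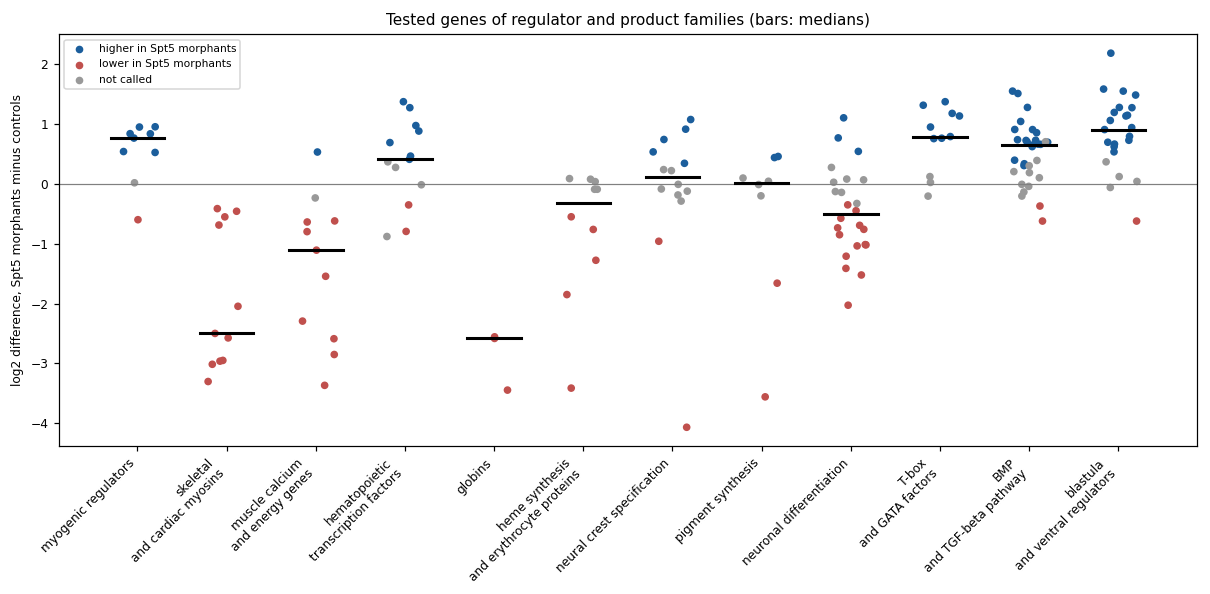
Log2 difference (Spt5 morphants minus controls, vertical axis) of every tested gene in families of regulators and products of muscle, blood, neural crest and neurons. T-box and GATA factors, BMP genes, and blastula and ventral regulators are at the right. Blue points rose, red points fell, grey points were not called, and black bars are family medians. Medians of the myogenic and hematopoietic factors and of the families at the right lie above 0, and those of myosins, muscle calcium and energy genes, globins and neuronal genes below it.

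Neuronal genes fell more often than the background, with 14 of 24 tested lower (12, 11, 9 and 8) and 3 higher (2, 2, 3 and 3), and a median of -0.51 (-0.63 to -0.32 relative to all genes with an array left out). Of these 1 was tested through Spt5 morphants alone and 4 through controls alone. The islet factor isl1a, which marks early-born neurons, read 157 and 145 in Spt5 morphants, against 105 and 102 in controls. Its relative isl2a read 86.7 and 80.2 in Spt5 morphants, against 49.3 and 48.5 in controls. They rose by 0.54 ± 0.10 and 0.77 ± 0.10. The genes tested through controls alone were the following: snap25a, of the vesicle fusion machinery, was at least 1.81-fold lower, cplx2a at least 1.5-fold, gng3 at least 1.37-fold and stmn4 at least 1.71-fold. Elavl3, a general marker of new neurons, read 302 and 278 in Spt5 morphants, against 278 and 276 in controls, overlapping, and was not called (adjusted p = 0.59). Among 33 progenitor and glial genes 6 rose (3, 3, 4 and 7) and 13 fell (11, 9, 9 and 7), with 2 tested through Spt5 morphants alone and 3 through controls alone, and the median of the set relative to all genes changed sign with the scaling. Gfap read 92.0 and 88.8 in Spt5 morphants, against 203 and 212 in controls. The glutamate transporter gene slc1a3a read 101 and 124 in Spt5 morphants, against 268 and 266 in controls. Their differences were -1.20 ± 0.09 and -1.25 ± 0.13, and the progenitor genes sox2 (0.25 ± 0.10) and sox3 (0.01 ± 0.10) were not called.

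Transcription factor families differed from one another. T-box and GATA factors rose in 8 of 11 genes (8, 6, 8 and 8) and none fell, with a median of 0.79. Tbx16, which acts in mesoderm migration, read 153 and 150.4 in Spt5 morphants, against 72.7 and 65.7 in controls. Tbx3a, a repressor of this family, read 166 and 221 in Spt5 morphants, against 66.6 and 88.9 in controls. They differed by 1.14 ± 0.10 and 1.32 ± 0.20. Sox factors gave 1 risen (0, 0, 0 and 1) and 2 fallen (1, 1, 2 and 1) of 12, and Hox genes 4 and 4 of 29 (3, 3, 6 and 7 higher, 3, 3, 2 and 2 lower), with 1 tested through Spt5 morphants alone and 2 through controls alone. Within the Hox clusters hoxc8a rose by 0.72 ± 0.09, hoxb10a by 0.77 ± 0.13 and hoxc6a by 0.71 ± 0.12, and hoxc13a and hoxc4a, dim in Spt5 morphants, were at least 1.82-fold and 1.21-fold lower. Sox21a fell by 0.95 with an SE of 0.11.

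The large homeobox set moved both ways, 20 up (12, 10, 16 and 18) and 14 down (10, 8, 6 and 5) of 56 tested and 109 on the array, with 3 tested through Spt5 morphants alone and 4 through controls alone. The Iroquois gene irx7 read 114 and 113 in Spt5 morphants, against 51.5 and 51.0 in controls. The eye field gene six3b read 199.5 and 183 in Spt5 morphants, against 117 and 108 in controls. They rose by 1.15 ± 0.09 and 0.77 ± 0.10. POU factors of class 3, which act in the neural tube, were on the other side: pou3f2b read 63.2 and 73.1 in Spt5 morphants, against 110.4 and 136 in controls, a difference of -0.85 ± 0.14, and pou3f3b and pou3f3a were at least 3.04-fold and 1.85-fold lower. Neural Zic genes went with them, zic1 (-0.86 ± 0.10) and zic5 (-0.83 ± 0.10), and so did 2 COUP-TF receptor genes. Nr2f1a read 73.0 and 63.3 in Spt5 morphants, against 188 and 217 in controls. Nr2f2 read 141 and 145 in Spt5 morphants, against 329 and 351 in controls. Their differences were -1.57 ± 0.13 and -1.25 ± 0.09. Forkhead factors rose in 9 (3, 5, 7 and 9) and fell in 2 (1, 2, 1 and 2) of 20, with 3 tested through Spt5 morphants alone and 1 through controls alone. Foxo3b rose by 1.06 ± 0.12 in both probe sets, and foxh1, the partner of Smad2 in Nodal signalling, was at least 1.55-fold higher than in controls, where it was dim.

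In the set of blastula and ventral regulators 18 of 23 tested genes rose (13, 11, 18 and 17) and 1 fell, with a median of 0.91. Blastula and ventral genes were not counted apart. Of 42 on the array 23 were tested, and 5 of these passed the filter through Spt5 morphants alone. The repressor gene vox, which restricts the organiser, read 461 and 429 in Spt5 morphants, against 160.5 and 157 in controls. Its relative ved read 268 and 228 in Spt5 morphants, against 63.0 and 46.7 in controls. Differences were 1.49 ± 0.09 and 2.19 ± 0.18, and szl was at least 1.99-fold higher. This list too was chosen with its rise known. It shares Bmp genes with the next family.

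BMP and TGF-beta pathway genes rose in 19 of 31 (8, 9, 15 and 17) and fell in 2 (1, 1, 1 and 1), with a median of 0.65 (0.40 to 0.53 relative to all genes with an array left out). Of these genes 5 were tested through Spt5 morphants alone, and with dim values raised to the limit the median was 0.40. On the values as deposited 3 of 32 were called higher, beside 197 of 5719 named genes. The median relative to all genes was 0.601 there. Without a filter 2 of 52 were called higher, beside 194 of 8793 named genes. The ligand gene bmp2b read 164 and 136 in Spt5 morphants, against 70.6 and 53.4 in controls. Bambia, a membrane decoy that BMP induces, read 237 and 296 in Spt5 morphants, against 150.2 and 169.5 in controls. Tob1a, an inhibitor of SMAD signalling, read 186 and 222 in Spt5 morphants, against 67.5 and 75.4 in controls. They rose by 1.28 ± 0.18, 0.73 ± 0.14 and 1.51 ± 0.13, so that ligand and inhibitors went the same way, and the ligand gene bmp5 fell by 0.62 with an SE of 0.10. Wnt genes rose in 8 (2, 3, 6 and 6) and fell in 2 (2, 1, 1 and 2) of 31, with 1 tested through Spt5 morphants alone and 2 through controls alone. Wnt5b, a non-canonical ligand, read 78.1 and 74.3 in Spt5 morphants, against 31.5 and 34.4 in controls. The nuclear effector lef1 read 68.9 and 80.7 in Spt5 morphants, against 42.0 and 45.2 in controls. They rose by 1.21 ± 0.10 and 0.77 ± 0.12. Axin2, the feedback inhibitor used as a readout of canonical Wnt activity, fell to 156 and 146, against 231 and 222 in controls, a difference of -0.59 ± 0.10.

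In the FGF and MAP kinase set 11 of 32 rose (9, 6, 9 and 9) and 5 fell (3, 3, 1 and 2), with 1 tested through Spt5 morphants alone and 2 through controls alone. The ligand fgf8a read 117 and 101 in Spt5 morphants, against 65.6 and 64.9 in controls. Spry4, a feedback inhibitor, read 249 and 291 in Spt5 morphants, against 107 and 119.8 in controls. They rose by 0.73 ± 0.11 and 1.25 ± 0.12, but dusp6, the feedback phosphatase most used as a readout of FGF signalling, differed by 0.22 ± 0.10 and was not called (adjusted p = 0.12). Notch genes were split, 7 up (5, 6, 6 and 7) and 9 down (8, 7, 7 and 8) of 29, with 1 tested through Spt5 morphants alone and 1 through controls alone. The receptor notch1a (0.87 ± 0.14) and the sheddase adam10a (0.77 ± 0.09) rose. The ligand dld read 181 and 186 in Spt5 morphants, against 323 and 319 in controls, a difference of -0.80 ± 0.09. The targets her4.5 (-0.85 ± 0.17) and her2 (-0.78 ± 0.11) fell, and her7, of the segmentation clock, rose by 0.76 ± 0.12. Hedgehog and retinoic acid genes gave 3 risen and 6 fallen (6, 4, 4 and 6) of 16, 1 tested through controls alone. Sufu, the brake on Gli factors, read 31.1 and 49.4 in Spt5 morphants, against 132 and 158 in controls, a difference of -1.89 ± 0.24, and cdon, a co-receptor, fell by 0.68. The ligand gene shha was at 104 and 94.6 in Spt5 morphants, against 91.0 and 122 in controls, and was not called (adjusted p = 0.68). Of 12 Eph receptors and ephrins 4 rose (1, 0, 2 and 1), and 1, ephb2b, fell to 145 and 129 in Spt5 morphants, against 337 and 329 in controls.

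Protein phosphatase subunits gave 9 higher (2, 3, 2 and 2) and 6 lower (5, 2, 4 and 5) of 37, 1 tested through Spt5 morphants alone. The phosphatase gene ppp5c, whose product binds Hsp90, read 93.2 and 81.8 in Spt5 morphants, against 354 and 313 in controls. Ppp1r10, a nuclear targeting subunit of PP1, read 102 and 89.6 in Spt5 morphants, against 231 and 221 in controls. Both fell, with differences of -1.93 ± 0.12 and -1.24 ± 0.11.

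In the fit to all 4 arrays, cell adhesion genes rose, and collagens fell, more often than the background. Cadherins and catenins gave 13 higher (8, 7, 11 and 11) and 3 lower (1, 2, 1 and 1) of 23, with a median of 0.43, 1 tested through Spt5 morphants alone and 1 through controls alone. Some desmosome genes were among those that rose: dsg2.1, a desmoglein, read 172 and 185 in Spt5 morphants, against 80.1 and 76.6 in controls. Jupa, the plakoglobin gene, read 996 and 988 in Spt5 morphants, against 501 and 544 in controls. Pkp1b, a plakophilin, read 352 and 369 in Spt5 morphants, against 206 and 210.2 in controls. Their differences were 1.19 ± 0.10, 0.93 ± 0.10 and 0.79 ± 0.09. Cdh1, E-cadherin, rose by 0.64 ± 0.10, and cdh2, N-cadherin, at 0.27 ± 0.10, was not called (adjusted p = 0.067). Integrins and focal adhesion genes rose in 8 of 13 (5, 3, 7 and 5) and none fell, 2 tested through Spt5 morphants alone. Lims1, an adaptor of integrin-linked kinase, rose by 1.11 ± 0.15 and the focal adhesion kinase relative ptk2bb by 0.75 ± 0.10. Claudins and tight junction genes rose in 10 (6, 5, 4 and 7) and fell in 4 (3, 3, 3 and 3) of 23, 2 tested through Spt5 morphants alone. Cldn7b (0.76 ± 0.10) and oclnb (0.85 ± 0.14) rose, and cldn3c (-1.20 ± 0.11), cldn1 (-0.91 ± 0.10) and cldn3d (-0.84 ± 0.13) fell. On the values as deposited, 1 of 25 cadherins and catenins, 1 of 12 integrin genes and 0 of 23 claudin genes were called higher. Of all named genes 197 of 5719 were called higher there. The medians relative to all genes were 0.395, 0.469 and 0.281 in that order.

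Collagen genes fell in 8 of 15 in every fit and rose in 2 (1, 1, 1 and 1), with a median of -0.61. Col1a2, of fibrillar bone and skin collagen, read 92.9 and 83.4 in Spt5 morphants, against 233 and 200.5 in controls, a difference of -1.30 ± 0.12, and col9a2 (-1.28 ± 0.11) and col28a2a (-1.45 ± 0.14) fell with it. Col14a1a, a fibril-associated collagen, rose by 0.59 ± 0.09. The other matrix genes moved both ways: 7 of 22 rose (5, 5, 5 and 5) and 10 fell (8, 7, 4 and 3), 3 tested through controls alone. Among those that rose were genes of prolyl hydroxylases that modify collagen chains: p4ha1b read 721 and 824 in Spt5 morphants, against 281 and 326 in controls. P4ha2 read 397 and 414 in Spt5 morphants, against 164 and 171 in controls. Both stood clear of their control values, and the differences were 1.35 ± 0.13 and 1.28 ± 0.09. Fibronectin, fn1a, read 327 and 349.8 in Spt5 morphants, against 147 and 124 in controls. The laminin chain lamb1a read 1536 and 1536 in Spt5 morphants, against 713 and 726 in controls. These glycoproteins of the basement membrane and early matrix rose by 1.33 ± 0.12 and 1.09 ± 0.09. Postnb, periostin, read 92.3 and 103 in Spt5 morphants, against 289.7 and 354 in controls. Hapln1a, a hyaluronan link protein, read 95.4 and 105 in Spt5 morphants, against 272 and 329 in controls. Their differences were -1.72 ± 0.14 and -1.58 ± 0.13, and decorin, dcn, was at least 2.58-fold lower. Of 12 matrix proteases and serpins 6 rose (5, 3, 4 and 6) and 1 fell, with 1 tested through Spt5 morphants alone and 1 through controls alone. The risen include the gelatinase mmp2 (0.67 ± 0.09), and mmp9, dim in controls, was at least 2.08-fold higher.

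**Figure D4:**
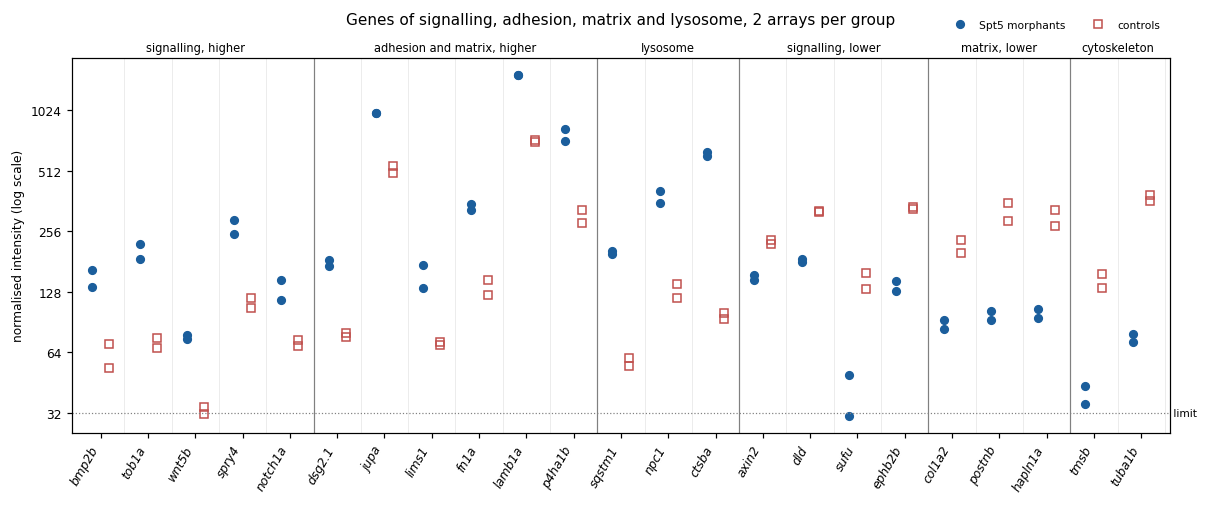
Normalised intensity (vertical axis, log scale) on each array for genes of signalling, adhesion, matrix and lysosome; filled circles are the 2 Spt5 morphant arrays and open squares, to their right, the 2 control arrays. Circles lie above squares from bmp2b to ctsba and below them from axin2 to tuba1b.

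Tubulins fell in 11 of 13 tested genes (10, 10, 9 and 7) and none rose, with a median of -0.77, 2 tested through controls alone. Tuba1b read 79.4 and 72.1 in Spt5 morphants, against 388 and 363 in controls, with both probe sets lower, a difference of -2.31 ± 0.10 (adjusted p = 0.00061). Tubb5 (-1.01 ± 0.10) and tubg1, the gamma tubulin of microtubule nucleation (-1.22 ± 0.09), fell as well. Actin regulators were evenly split, 8 higher (4, 2, 5 and 7) and 10 lower (7, 7, 6 and 8) of 47, with 1 tested through Spt5 morphants alone and 1 through controls alone. Tpm4a, a tropomyosin, read 1348 and 1410.4 in Spt5 morphants, against 769 and 801 in controls. Tmsb, a beta thymosin that sequesters actin, read 43.4 and 35.7 in Spt5 morphants, against 158 and 133 in controls. Their differences were 0.81 ± 0.09 and -1.88 ± 0.15, and the actin gene actb2 at 0.21 ± 0.09 was not called (adjusted p = 0.11). Genes of cilia and centrosomes gave 4 higher and 9 lower (6, 6, 4 and 5) of 24, with 1 tested through Spt5 morphants alone and 3 through controls alone. Spag1a (1.31 ± 0.13) and cfap298 (0.73 ± 0.10), both needed to assemble axonemal dynein, rose, and the transport genes ift56 (-0.90 ± 0.10) and ift46 (-0.81 ± 0.11) fell. Of 10 keratins 4 rose (3, 3, 3 and 3) and 2 fell (2, 2, 1 and 0), 2 tested through controls alone, with krt97 (1.05 ± 0.13) and krt18a.1 (0.63 ± 0.10) higher, and the epidermal genes krt4 (0.14 ± 0.09) and krt5 (0.11 ± 0.10) not called.

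The age course of each gene was read from the 2 untreated arrays, which the comparison of morpholinos did not use, as the log2 difference of 21 hpf minus 5 hpf with dim values raised to the limit of 5. With 1 array per age it has no test. The median was -0.09 over genes that rose in Spt5 morphants, 0.33 over genes that fell, 0.05 over genes not called and 0.09 over all tested genes. Of the called genes at least 2-fold lower in Spt5 morphants 39.7% were at least 2-fold higher at 21 hpf, against 27.2% of all tested genes. Only genes at or above the limit on at least 1 of the 2 untreated arrays have an age value, 5382 of the 5691 tested. Shares and medians are over those genes. They include genes tested through controls alone, 256 before this second limit, and genes tested through Spt5 morphants alone, 190 before it. The filter on the morpholino arrays selects the first for signal in controls at 21 hpf and the second for its absence there. That filter thus sets part of the contrast, and values without these genes are not given. Families that fell in Spt5 morphants did not share 1 age course. Those at higher level at 21 hpf include myosins (3.49), lipid carriers (3.93) and collagens (2.88). Cyclins (-3.17), kinesins (-0.85) and kinetochore genes (-0.62) were at lower level at 21 hpf, and MCM and origin genes (-0.19) and fork genes (0.32) near the median of all genes. Cytosolic ribosomal proteins, of which few changed between the morpholinos, had a median age difference of 2.15. Across the 103 families with at least 5 genes the response and the age difference had a Pearson correlation of -0.11 and a Spearman correlation of -0.02. Families share genes and arrays, so these coefficients only describe the plot.

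**Figure D5:**
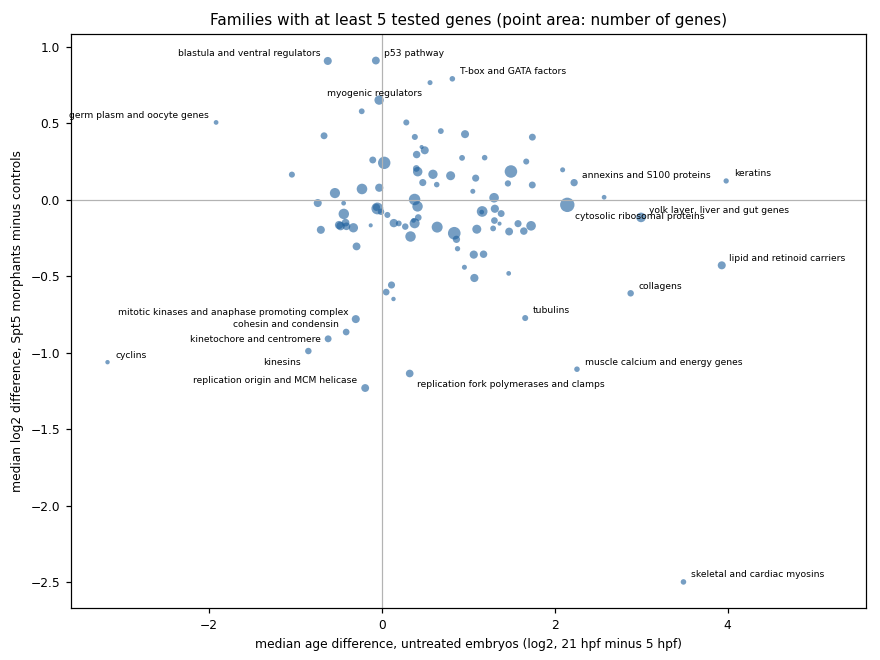
Median age difference of each family (untreated embryos, log2 of 21 hpf minus 5 hpf, horizontal axis) against its median difference between Spt5 morphants and controls (log2, vertical axis), 1 point per family with at least 5 genes. The lowest families spread over the whole horizontal range, from cyclins on the left to myosins on the right.

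The length of a gene's span in the RefSeq gene table (assembly GRCz12tu) was much the same whichever way a gene moved. Median spans were 15.8 kb for genes that rose, 14.3 kb for genes that fell and 14.5 kb for genes not called. Calls were made at every level of signal. In the dimmest quartile of tested genes 21.2% rose and 26.7% fell, and in the brightest quartile 22.1% rose and 21.2% fell.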

How the data were processed

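Embryo RNA was measured on Affymetrix zebrafish arrays, 1 array per sample. Per the submitters' processing notes the authors used GCRMA, version not given in the sources used here, and the deposited values are intensities on a linear scale. Here they were turned to log2 and quantile normalised over the 4 morpholino arrays, which forces equal distributions and so measures changes relative to the bulk of genes. Groups came from the sample titles. Probe sets with a log2 of at least 5 (intensity 32) on at least 2 arrays were tested with limma 3.58.1 in R 4.3.3 (lmFit and eBayes), and p-values were adjusted by Benjamini-Hochberg over all 8457. On simulated arrays 200 of 8457 probe sets were changed by 1 or 2 on the log2 scale, with 1 common SD of 0.11. All 200 were recovered, with 13 false calls. Smaller changes, unequal spreads and a larger share of changed probe sets were not simulated, so this does not give the recovery in these data. With 2 arrays per group, the number of arrays limits the precision.

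Of 15502 non-control probe sets 10795 had 1 gene symbol, 135 several and 4572 none in the platform annotation, and 10711 symbols were updated through the RefSeq gene table (assembly GRCz12tu). A gene was represented by its tested probe set of highest mean level. Genes were named by rule: up to 4 called genes per direction with the largest differences in each family, and key genes of textbook role whatever their values. The genes printed in the text are of these kinds: called genes that stayed called with each array left out, called genes dim in 1 group, and key genes not called. Not all such genes are printed, so the printed genes of a family need not be its largest changes. The families, lists and members were chosen with earlier results of these data known. The results of 1 family are not reported here. Same-numbered arrays of the groups deviated together with a correlation of 0.254, and with 2 pairs this does not show that the numbers pair samples. Other scalings, filters, a variance trend, a replicate block and left-out arrays were tried as alternatives.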

Additional observations from a re-analysis of the deposited data

How the results depend on the processing

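The counts of called probe sets depended on scaling, filter and single arrays, and no called gene printed here changed direction. Against 2059 higher and 1942 lower probe sets, the values as deposited gave 305 higher and 1350 lower, and centring on spiked-in controls 910 and 3516. Without a filter on dim probe sets 342 were higher and 532 lower of 15502 tested. With each array left out in turn the higher count ran from 978 to 1673 and the lower from 1190 to 1475, where the lone array of a group is assumed to vary like the other group. Median centring gave 2217 and 1727, a filter at a log2 of 6 gave 1727 and 1576 of 5921 tested, raising dim values to the limit 2016 and 1905, and a variance trend 2312 and 2114. A replicate block, which pairs arrays of the same number, gave 2304 higher and 2135 lower probe sets and ended the call of none of the 308 called genes printed here.

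Of those 308 genes, 74 lost the call on the values as deposited, 7 with spike-in centring, 155 without a filter and 2 with dim values raised to the limit, and none under median centring or the variance trend. Without Spt5 array 1, Spt5 array 2, control array 1 and control array 2 in turn 7, 7, 24 and 24 of them were not tested, since they are dim in 1 group and too few bright arrays remain. Of the 88 families with at least 10 genes 85 kept the sign of their median relative to all genes under every scaling. The exceptions were deubiquitinating enzymes, neural progenitor and glia genes, and annexins and S100 proteins. Using the mean of all probe sets of a gene gave 1380 higher and 1459 lower genes, against 1282 and 1399. Signal over background limits the rest: 3102 named genes on the array were not tested.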

Other observations

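Some smaller families and single members add to the picture. Vessel genes were split: the lymphatic and vascular receptor gene flt4 read 32.6 and 35.0 in Spt5 morphants, against 75.9 and 68.8 in controls, a difference of -1.10 ± 0.10, and the vascular factor fli1 fell by 0.79 with an SE of 0.09. The semaphorin and VEGF co-receptor nrp2b rose to 161 and 164 in Spt5 morphants, against 96.9 and 78.9 in controls. Kdrl, the main VEGF receptor gene, at -0.14 ± 0.15, was not called (limma adjusted p = 0.5). Of 11 vessel genes tested 4 rose (3, 3, 3 and 5 with each array left out, in the order used above) and 3 fell (3, 3, 2 and 2), with 1 tested through Spt5 morphants alone and 1 through controls alone. In the annexin and S100 set 5 of 19 rose (5, 3, 4 and 3) and 6 fell (5, 6, 6 and 5), 1 tested through Spt5 morphants alone, and the median relative to all genes changed sign with the scaling. Anxa1a read 2887 and 2954 in Spt5 morphants, against 1785 and 1728 in controls. Icn, an S100-like calcium-binding protein of fish, read 311 and 274 in Spt5 morphants, against 727 and 758 in controls. The differences were 0.73 ± 0.09 and -1.35 ± 0.11. Gja1b, the connexin 43 gene, was dim in Spt5 morphants at 15.7 and 14.3, against 88.6 and 94.6 in controls, at least 2.86-fold lower.

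Egg coat genes, whose RNA is supplied by the mother, were among the few germ line genes tested. Of 39 germ plasm and oocyte genes on the array 8 were tested, 4 of these rose (1, 1, 4 and 4) and 1 fell, 2 tested through Spt5 morphants alone. The zona pellucida gene zp3.1 read 132 and 123 in Spt5 morphants, against 55.6 and 47.6 in controls, both of its probe sets rose, and the difference was 1.31 ± 0.12 (limma adjusted p = 0.0017). The germ cell gene nanos3 was at 75.2 and 80.1 in Spt5 morphants, against 70.2 and 65.5 in controls, and was not called (limma adjusted p = 0.16), and nanos1 fell by 0.59 with an SE of 0.09.

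In 11 of the 817 genes with several tested probe sets the probe sets were called in both directions, so a gene's call rests on the probe set with the highest mean level.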
